A study of Mus musculus with 8 samples.

Results

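Most of the genes described here encode proteins of the cytosolic ribosome, the particle that translates nuclear-encoded mRNA. They were chosen by symbol: Rpl or Rps followed by a digit, with Rplp0, Rplp1, Rplp2 and Rpsa, and without the S6 kinases, Rps19bp1 or symbols that mark a pseudogene. The array carried 87 such genes on 177 probes, and 86 of them, read by 174 probes, were bright enough to be tested among 15090 named genes and 32600 probes. Rpl3l, the muscle form of Rpl3, had 1 probe that was well above background on 1 of 8 arrays and was not tested. By symbol, 52 of the 86 genes were counted to the large subunit and 34 to the small subunit. Of the 86, 77 are core genes and 9 are paralogs or retrogenes of a core gene.

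Hippocampal RNA came from adult male Muta Mouse, a transgenic strain built to score mutations, aged 9 weeks. The 4 BaP mice received benzo[a]pyrene, a polycyclic aromatic hydrocarbon that is mutagenic once metabolised, at 70 mg/kg body weight per day by gavage in olive oil on 3 days, and the 4 control mice received the oil alone. Tissue was taken 24 hr after the last dose, and each mouse was hybridised on its own 2-colour array, its RNA in Cy5 and a universal mouse reference RNA in Cy3. Dyes were not swapped, so a level is given as the log2 ratio of mouse to reference, and a difference as BaP minus control on that scale. In 4 mice, BaP 3, BaP 4, Control 3 and Control 4, the labels disagree, since the title names one group and the source name the other. Groups follow the titles here, and results by source name are given where the genes differ. All 8 arrays lie on 1 slide, in 2 rows that each hold 2 control and 2 BaP mice, and the 4 mice in doubt are those of row 2.

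Ribosomal proteins assemble on ribosomal RNA in the nucleolus, and their mRNAs are among the most abundant of the cell. Most of these mRNAs begin with a C followed by a run of pyrimidines, the 5′ terminal oligopyrimidine (TOP) tract, through which the kinase mTORC1 mainly adjusts their translation. Free Rpl5, Rpl11 and a few other ribosomal proteins bind Mdm2 when ribosome assembly is disturbed and so stabilise p53, and Rps27l is itself a p53 target. In neurons, ribosomes also lie in dendrites, where local translation serves synaptic plasticity.

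The start sites of several of these genes show the feature that the family is known for, and 8 are printed as examples with and without it. All of them except Rpl13a recur in the results. RefSeq promoters of build GRCm38.p6 matched 66 of the 87 genes, with 78 promoters. Each line gives 60 bases of the gene's strand, 40 before the annotated start and 20 from it on, and capitals mark a run of at least 8 pyrimidines that starts with C.
Rps6, chr4:86857348-86857407, minus strand: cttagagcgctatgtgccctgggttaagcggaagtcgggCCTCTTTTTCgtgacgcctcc
Rplp2, chr7:141447611-141447670, plus strand: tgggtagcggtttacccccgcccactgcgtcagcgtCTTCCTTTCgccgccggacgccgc
Rps27, chr3:90213629-90213688, minus strand: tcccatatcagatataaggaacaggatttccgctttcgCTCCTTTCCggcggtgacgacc
Rpl13a, chr7:45128726-45128785, minus strand: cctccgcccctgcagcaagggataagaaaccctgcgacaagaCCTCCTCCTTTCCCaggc
Rps26, chr10:128626487-128626546, minus strand: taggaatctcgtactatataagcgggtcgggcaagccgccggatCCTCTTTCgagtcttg
Rpl22l1, chr3:28805468-28805527, plus strand: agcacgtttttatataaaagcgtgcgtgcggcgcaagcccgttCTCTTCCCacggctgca
Rpl37a, chr1:72711220-72711279, plus strand: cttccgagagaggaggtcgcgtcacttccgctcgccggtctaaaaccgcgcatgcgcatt
Rpl9, chr5:65391412-65391471, minus strand: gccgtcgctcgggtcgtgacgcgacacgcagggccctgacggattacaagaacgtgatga

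In the first 6 sequences the run lies at or within a few bases of the annotated start, and in Rpl37a and Rpl9 no such run is in the window. A run of 8 or more that starts between 10 bases before and 20 bases after the annotated start was present in 25 of the 78 promoters (32.1%) and in 9.72% of all 32851 RefSeq promoters. Across 12 definitions of length and window tried, the share in these promoters was 1.63 to 4.79 times that in all promoters. The word CCGGAAG, the core of sites for ETS factors, was found on either strand of the 300 bases in 34.6% of the promoters against 8.86% of all. TCTCGCGA occurred in 15.4% against 0.995%, and AAGATGGC, a core of YY1 sites, in 10.3% against 2.75%. TATAAA was in 10.3% against 13.6%. These 4 words were picked from 9 after their shares had been seen, and a match describes letters, not binding.

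No cytosolic ribosomal protein gene passed the test for a difference between BaP and control mice. In limma over all probes, a call required both an adjusted p within 0.05 and a 1.5-fold difference. By this rule 0 of the 86 genes were called, and the background was 3 of 32600 probes (0.0092%). The lowest adjusted p of a member was 0.499 in limma, that of Rpl9. At an unadjusted p of 0.05, 4 genes were lower in BaP mice (4.65%, against 4.23% of all probes) and 1 was higher (background 4.53%). The count of lower genes depended on the fit: 12 of 86 were lower at that p with a robust fit and with a gene-wise F test, where 4.38% and 4.03% of all probes were, and 8 were without BaP 4 (5.01% of all probes).

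Under the loess scaling and the grouping by title, the intervals of most differences were narrow. They hold the spread between mice, and not the shifts between scalings or groupings given below. The 95% interval of the difference lay within 1.5-fold in either direction for 85 of the 86 genes and within 1.2-fold for 38. Rpl10l was the exception at 1.5-fold. Core genes ranged from -0.25 for Rpl37a to 0.19 for Rpl23a, and the median SE over the 86 genes was 0.083. Since the tissue was taken whole, fewer cells of a type and less RNA per cell cannot be told apart.

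**Figure D1:**
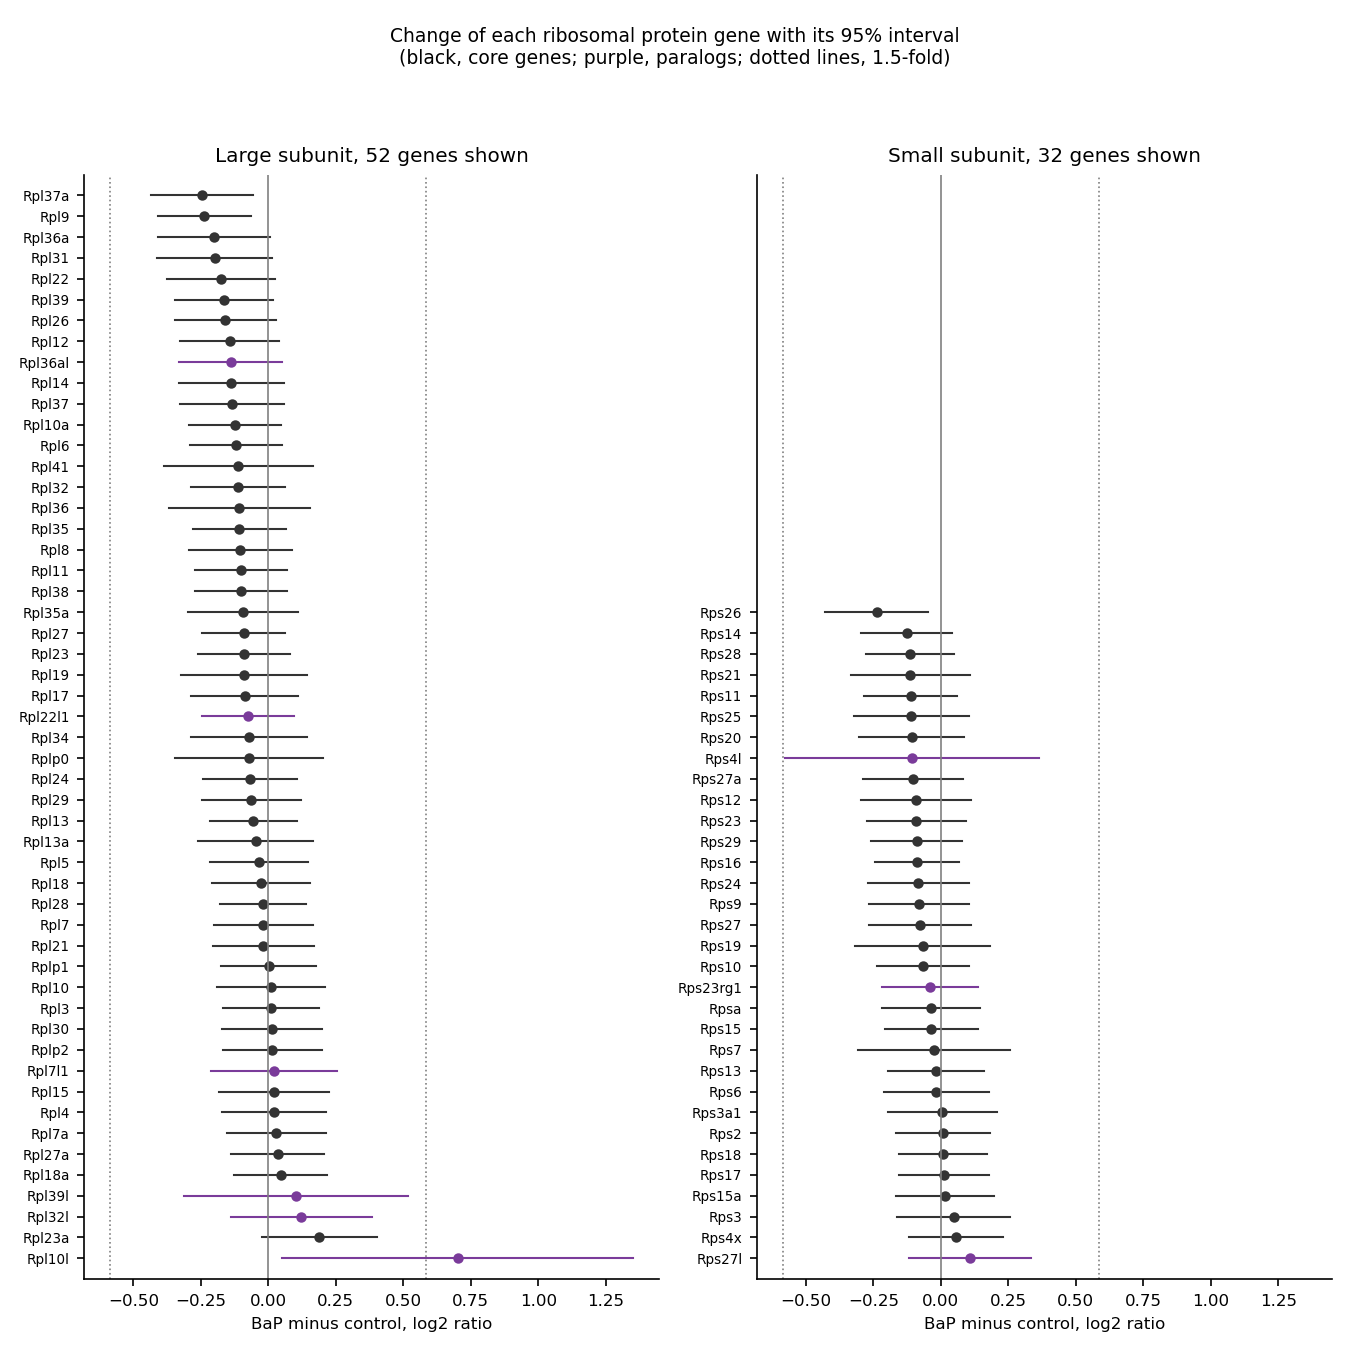
Difference between BaP and control mice (log2 ratio, x axis) for 52 large-subunit genes and 32 of the 34 small-subunit genes, ordered by size. Points are limma estimates from 4 mice a group, except Rps12 and Rpl7l1 with 7 mice in all, bars are 95% intervals, and dotted lines mark 1.5-fold; only the interval of Rpl10l reaches past a dotted line.

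Most estimates were small and below 0. Of the 86 genes, 63 had a lower mean in BaP mice and 23 a higher one, where 51.2% of all probes were lower. The median difference was -0.077 over the ribosomal protein genes and -0.004 over all probes. Large-subunit genes had a median of -0.07 and small-subunit genes of -0.08, while the 9 paralogs had a median of 0.02. In 7 genes (8.14%) every BaP mouse was below every control mouse, against 2.54% of all probes, and in 0 genes was every BaP mouse above (2.52% of all probes). Among 2038 other probes with a mean Cy5 signal over 10000 scanner units, 5.15% lay lower without overlap and 6.23% were lower at an unadjusted p of 0.05. The 129 ribosomal protein probes of that brightness gave 9.30% and 3.88%.

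That lean depended on how the 2 channels were scaled. With the authors' own log ratios the median was -0.006, with 44 genes lower and 42 higher, and with the Cy5 channel alone it was 0.019, with 37 lower and 49 higher. Centring each array on its median placed all 86 genes above 0 with a median of 0.188, but the median of all probes was then 0.167. Relative to all probes the genes stood at 0.022 in that case and at 0.004 with Cy5 alone. Grouping the mice by source name gave a median of -0.009. The direction of the family's median is therefore not settled by these arrays.

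**Figure D2:**
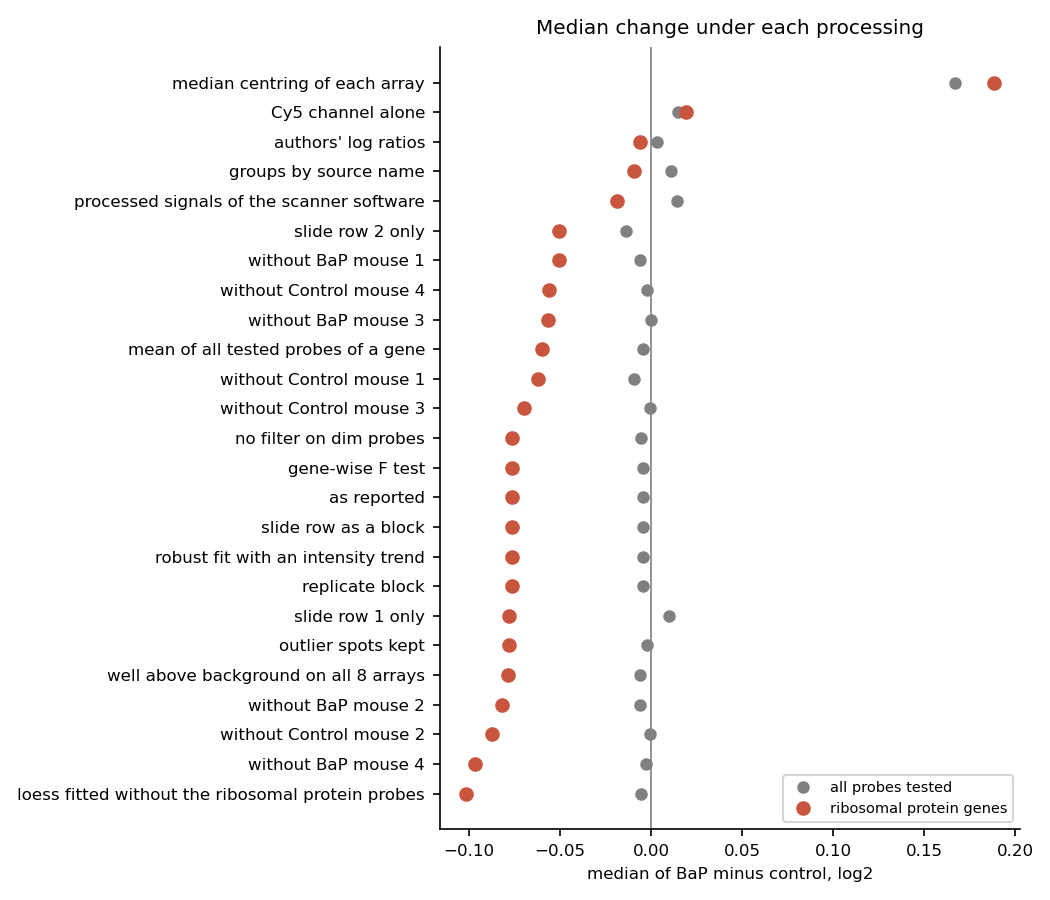
Median difference between BaP and control mice (log2, x axis) of the ribosomal protein genes and of all probes tested, under each way of processing the arrays (rows). The 2 medians lie within 0.032 of each other for the scanner software's processed signals, median centring, the Cy5 channel, the authors' ratios and grouping by source name, and further apart under the other settings.

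The lean was largest in the brightest class of probes, without a steady trend over the classes of ribosomal protein probes. The genes are read by some of the brightest probes on the array, with a median Cy5 signal of 43767 units against 367 over all probes tested. They supplied 61 of the 500 brightest probes (12.2%), and 0.534% of all. Among 684 other probes with a mean Cy5 signal over 30000, the median difference was -0.06 and 70.6% were lower, and among the 82 ribosomal protein probes of that class it was -0.09 and 87.8% were lower. Between 10000 and 30000 the order was turned, with -0.02 for 47 ribosomal protein probes and -0.04 for 1354 others. In each class from 300 to 10000 units the median of ribosomal protein probes was -0.04, against -0.02 to 0.01 for others. Under 300 units it was 0.02 for ribosomal protein probes. The part of brightness in the lean was not tested.

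**Figure D3:**
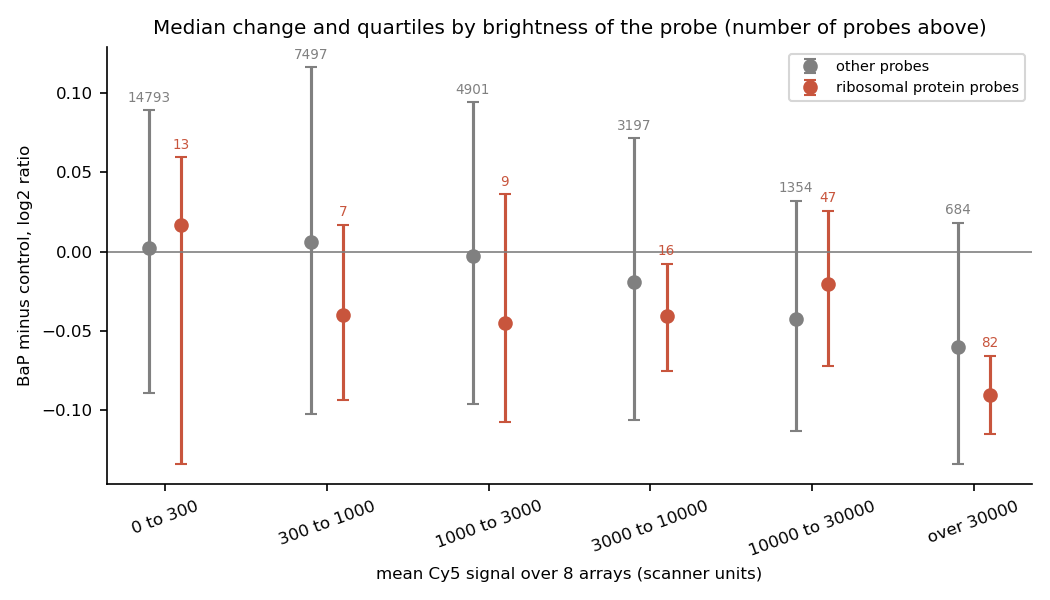
Median difference (points) and quartiles (bars) between BaP and control mice on the log2 scale, by class of mean Cy5 signal in scanner units, for ribosomal protein probes and for all other probes tested; numbers of probes stand above the bars. The medians are 0.02 for ribosomal protein probes and 0.00 for the others under 300 units, and -0.09 and -0.06 over 30000 units.

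The 8 mice did not separate by group. Each gene was centred on its mean over the 8 mice, and the median deviation of the genes was 0.07 in Control 1, -0.00 in Control 2, 0.03 in Control 3 and 0.05 in Control 4. In BaP mice it was -0.09 in BaP 1, -0.02 in BaP 2, -0.07 in BaP 3 and 0.04 in BaP 4. BaP 1 stood lowest, with 9 of 86 genes above their mean, while BaP 4 had 65 of 86 above and lay among the controls. The authors' ratios gave medians between -0.02 and 0.02 for the same mice, and BaP 1 was then at -0.01.

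**Figure D4:**
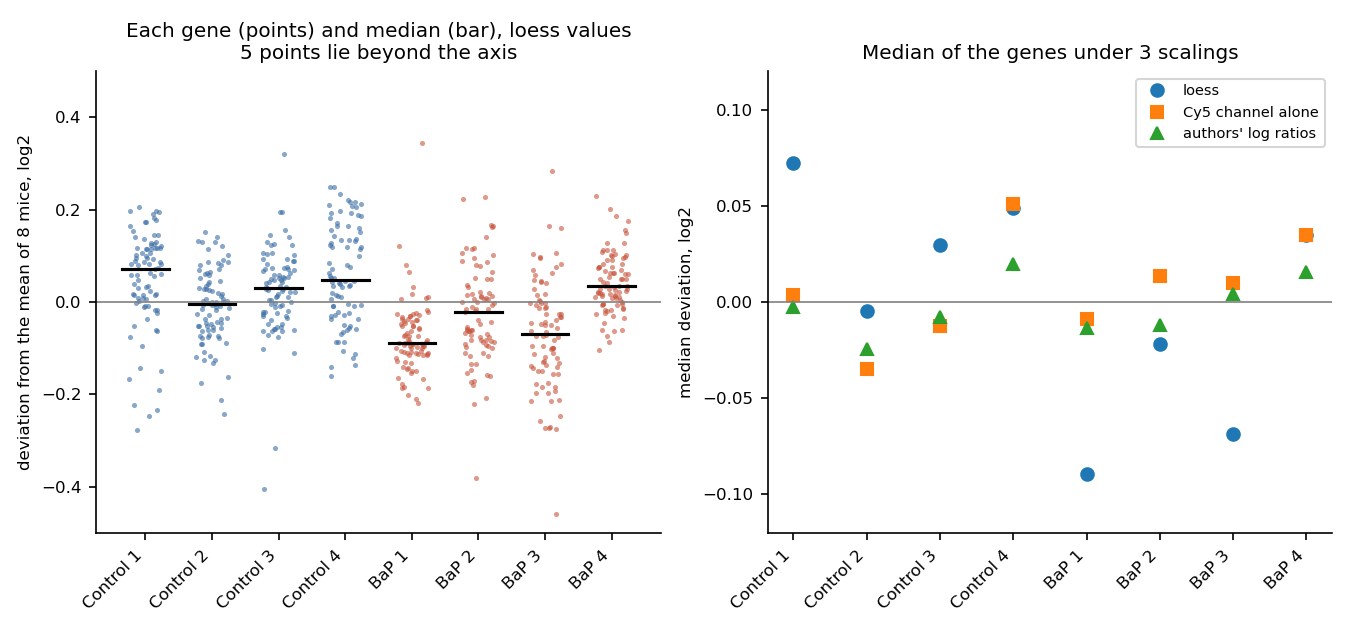
Left, deviation of every ribosomal protein gene from its own mean over 8 mice (log2, loess values; points) with the median per mouse (bar). Right, the same medians with loess, with Cy5 alone and with the authors' log ratios; BaP 1 is lowest with loess at -0.09 and not under the other scalings.

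Rpl37a, a zinc-finger protein of the large subunit, had the most negative difference of all members. Its log2 ratio to the reference was 0.51, 0.32, 0.42 and 0.50 in Control 1 to 4 and 0.15, 0.11, 0.18 and 0.33 in BaP 1 to 4. The groups overlapped, since BaP 4 lay above Control 2. The difference was -0.25 (SE 0.085, 95% interval -0.43 to -0.06), with an adjusted p of 0.510 in limma and an exact two-sided permutation p of 0.057.

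Rps26, a small-subunit protein at the mRNA exit channel, followed. Its values were -0.42, -0.49, -0.41 and -0.36 in the controls and -0.66, -0.66, -0.81 and -0.50 in BaP mice. All 4 BaP mice lay below all 4 controls, by a gap of about 0.01 between BaP 4 and Control 2. The difference was -0.24 (SE 0.085), and the exact permutation p of 0.029 is the smallest that 70 assignments of 4 against 4 can give. Its adjusted p in limma was 0.515. The estimate turned to 0.03 with groups by source name.

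Rpl9, a large-subunit protein near the base of the stalk, had the clearest gap between groups. Controls were at 0.77, 0.72, 0.69 and 0.86 and BaP mice at 0.53, 0.55, 0.43 and 0.58. The difference was -0.24 (SE 0.077), with an adjusted p of 0.499 in limma and an exact permutation p of 0.029. The other probe of the gene, with a Cy5 signal of 64350 units against 93759, gave -0.11 with an exact permutation p of 0.143. With groups by source name the estimate for Rpl9 was 0.03.

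Rpl36a, a large-subunit protein, was at -1.60 ± 0.117 (SD, n = 4) in controls and -1.81 ± 0.123 in BaP mice, a difference of -0.20 (SE 0.093). The groups overlapped, with BaP 4 above 2 of the controls. By source name the estimate was 0.05.

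Of the other genes whose groups did not overlap, 3 were named after their values had been seen. They are Rps28 with a difference of -0.12, Rpl27 with -0.09 and Rps16 with -0.09, all with SE between 0.069 and 0.073. The limma adjusted p of these 3 ran from 0.655 to 0.720, and by source name Rps28 was at 0.07. For Rpl27, controls spanned -0.49 to -0.46 and BaP mice -0.61 to -0.52, and the other probe of the gene gave a difference of 0.05. The gap was narrower for Rps16, with the lowest control at -0.028 and the highest BaP mouse at -0.036.

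**Figure D5:**
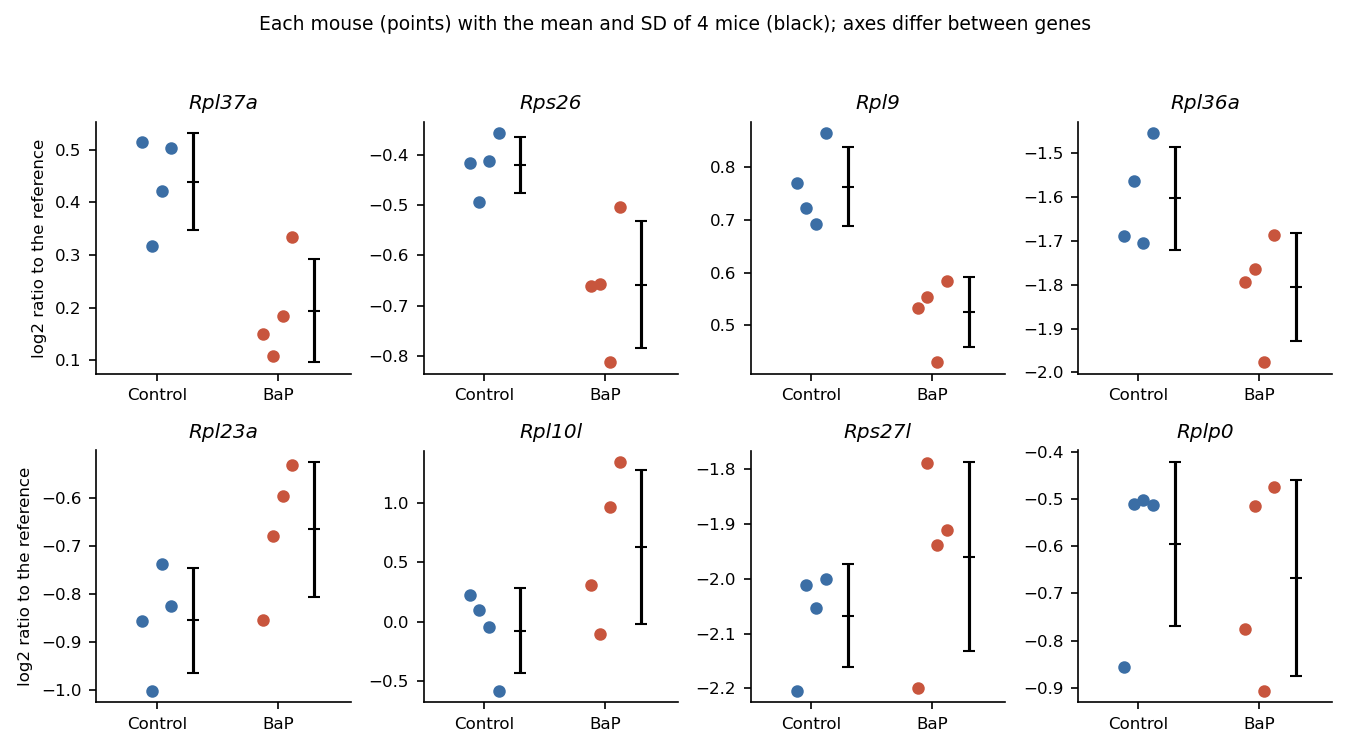
Log2 ratio to the reference in each of 4 control and 4 BaP mice (points), with mean and SD beside them (black), for 8 ribosomal protein genes; each panel has its own axis. The groups do not overlap for Rps26 and Rpl9 and overlap in the other 6 panels.

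At the upper end stood Rpl23a, a large-subunit protein beside the exit of the nascent chain. Controls were at -0.86, -1.002, -0.74 and -0.82 and BaP mice at -0.85, -0.68, -0.60 and -0.53. BaP 1 lay among the controls and the other three above them. The difference was 0.19 (SE 0.096, adjusted p 0.595 in limma), and the second probe gave 0.25 with an exact permutation p of 0.057. Grouping by source name turned the estimate to -0.03.

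Rpl10l, a retrogene of Rpl10 known from male germ cells, had the largest estimate and the least signal. Its mean Cy5 signal was 111 units, and it was well above background in 2 control mice and 2 BaP mice. Controls were at 0.23, 0.10, -0.04 and -0.58 and BaP mice at 0.31, -0.10, 0.96 and 1.35. The difference of 0.70 (SE 0.292, adjusted p 0.549 in limma, exact permutation p 0.143) turned to -0.06 in row 1 of the slide and to -0.76 with groups by source name. Its parent Rpl10, read at 99367 units, differed by 0.01 (SE 0.090).

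The other paralogs were compared with their parents as side-by-side values. Rps27l, a p53 target, was at -2.20 in Control 1 and between -2.05 and -1.99998 in the other controls, and at -2.20, -1.79, -1.94 and -1.91 in BaP mice. Control 1 and BaP 1 were both low and the groups overlapped. The difference was 0.11 (SE 0.101), against -0.08 for Rps27. It stayed above 0 under all 26 alternatives, from 0.01 to 0.37, without passing the test in any.

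Rpl22l1, which can replace Rpl22 in the ribosome, differed by -0.08 and Rpl22 by -0.18. The second probe of Rpl22 gave 0.09. Rpl36al differed by -0.14 and Rpl36a by -0.20, Rpl7l1 by 0.02 and Rpl7 by -0.02, and Rpl32l by 0.12 and Rpl32 by -0.11. The other tested probes of Rpl7 gave 0.06, 0.10 and 0.06. Rpl39l, a testis-enriched form, differed by 0.10 at a signal of 114 units, well above background on 6 arrays, and Rpl39 by -0.17. Rps23rg1, a retrogene of Rps23, differed by -0.04 and Rps23 by -0.09. By source name the estimates of Rpl36al, Rpl36a, Rpl32l, Rpl32, Rpl39 and Rps23rg1 turned sign, and those of the other genes in these pairs did not. None of these pairs had a member that passed the test, and the differences within pairs were not tested.

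Rps4l, which has a non-coding transcript accession in RefSeq and is related to Rps4x, varied most among the controls. It was at 3.13, 3.66, 4.06 and 4.32 in control mice and at 3.71, 3.62, 3.75 and 3.65 in BaP mice. The SD was 0.518 in controls and 0.059 in BaP mice, and the BaP values lay inside the control range. Its difference was -0.11 (SE 0.212), against 0.06 for Rps4x, and by source name it was 0.38. Its probe read 87.2 units in the Cy3 channel of the reference, below the median Cy3 signal of each array (106 to 141.5), so its ratio rests on a dim denominator.

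The P-stalk genes, whose proteins recruit elongation factors to the large subunit, gave near-zero differences for Rplp1 (0.00, SE 0.079) and Rplp2 (0.01, SE 0.083). Rplp0, their anchor and a common reference gene for PCR, was at -0.86, -0.51, -0.50 and -0.51 in controls and at -0.77, -0.52, -0.91 and -0.48 in BaP mice. Control 1, BaP 1 and BaP 3 lay together below the other mice, so the split cut across the groups. Its difference was -0.07 (SE 0.124), and 0.11 by source name. Rpsa, the laminin receptor protein of the small subunit, differed by -0.04 (SE 0.082).

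Rps6, the small-subunit protein that S6 kinases phosphorylate, was at -0.17, -0.24, -0.27 and -0.42 in controls and at -0.35, -0.39, -0.19 and -0.23 in BaP mice. The groups overlapped across their whole range, and the difference was -0.02 (SE 0.087). Rps27a, a ubiquitin fusion, differed by -0.10 (SE 0.083), and Rps19, the gene first linked to Diamond-Blackfan anemia, by -0.07 (SE 0.112). By source name the estimate for Rps19 turned positive.

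The proteins that report disturbed ribosome assembly to p53 were likewise within error. Rpl5 differed by -0.03 (SE 0.082) and Rpl11 by -0.10 (SE 0.077), with adjusted p values of 0.927 and 0.708 in limma. Beside them, Trp53 differed by 0.02, Mdm2 by 0.01, Mdm4 by -0.15, Myc by 0.09 and Rpl23 by -0.09. Cdkn1a, the cell cycle inhibitor induced by p53, was at -3.25 ± 0.241 in controls and -3.53 ± 0.0743 in BaP mice, a difference of -0.28 with an adjusted p of 0.551. Cdkn2a, whose Arf product restrains Mdm2, had the largest difference of the list, -0.49 (adjusted p 0.478 in limma). Of the 10 genes of this list, 0 passed the test, and these last 2 reached an unadjusted p of 0.05.

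Levels against the reference spread widely between genes. A ratio to a reference pool is not an amount, and it depends on the probe, so the genes are not ranked by it. The median over the 86 genes in control mice was -0.40, and 63 were below the reference. The authors' ratios gave a median of -0.68 with 73 below, and median centring gave -1.98 with 84 below, so most of the genes lay below the reference under each scaling, and an effect of the dyes cannot be told apart from a level here. Over all probes the control median was 0.11 with loess.

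Rps29, a small zinc-finger protein of the small subunit, was at 1.09 ± 0.0801 (SD, n = 4) in controls on its brightest probe and at 1.12 and 0.93 on its others. Rpl38, which has been tied to the translation of Hox mRNAs, read 0.60 and 0.58. Other genes gave different levels on different probes. Rps24 read 0.93, 0.09 and -1.20 from its brightest probe to its dimmest, Rpl9 0.76 and 0.19, Rpl22 -1.48 and -0.26, and Rps3 -1.85 and -0.72. Rps27l, read by 1 probe, was at -2.07. Rpl39l had a measured ratio of -5.11, but its only probe was well above background in 2 of 4 control mice. Within a probe, the control SD over mice had a median of 0.090, far less than these gaps between probes of a gene.

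Probes of one gene differed far more in level than in the BaP comparison. Among the 51 genes with more than 1 tested probe, the spread of control levels had a median of 0.75 and reached 3.52 in Rpl14, where one probe read 81169 Cy5 units and another 799. The spread of the BaP difference had a median of 0.071 and a maximum of 0.27. All probes were lower in BaP mice for 25 of these genes, all were higher for 4 and signs were mixed for 22. The most negative single probe belonged to Rpl26, picked out after its value had been seen, at -0.37 (adjusted p 0.490 in limma), while its 2 brighter probes gave -0.15 and -0.16. Many ribosomal protein genes have near-identical processed pseudogenes, and a probe may also read transcripts of those copies.

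Genes with and without a pyrimidine run at the start had similar median differences in the BaP comparison, and the contrast between these sets was not tested. The split rests on annotated starts and on the run length chosen, so a gene counted without a run may still carry a TOP tract. Runs of 5 or more, starting from 10 bases before to 20 after the start, were present in 61.5% of these promoters and 37.6% of all. The 25 tested genes with a run had a median difference of -0.08, with 19 lower and 6 higher, and the 40 with a matched promoter and no run had a median of -0.07, with 29 lower and 11 higher. Other mRNAs of the TOP class, which encode translation factors and partners, had a median of -0.02 over 18 genes. In limma 0 of them were called, and 1 reached an unadjusted p of 0.05. In that list Eif3e, a subunit of initiation factor eIF3, had the highest difference at 0.28 (SE 0.082, adjusted p 0.496 in limma) and Eef1d, an exchange factor for eEF1A, the lowest at -0.16.

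Among genes that build or control ribosomes, limma also called 0. Over 30 ribosome biogenesis genes the median difference was -0.05, with 10 higher and 20 lower, and 1 and 2 of these reached an unadjusted p of 0.05. Ncl, the nucleolar protein nucleolin, was highest by 0.37 (SE 0.141, adjusted p 0.533), and Polr1b, a subunit of RNA polymerase I that was well above background on 5 of 8 arrays, was lowest at -0.50 (SE 0.475). The 2 lower genes at that p, named after their values had been seen, were Pes1, a factor of large-subunit assembly, at -0.31 (SE 0.087, adjusted p 0.490 in limma) and Tcof1, which encodes the nucleolar protein treacle, at -0.31 (SE 0.097, adjusted p 0.498). In both, every BaP mouse was below every control mouse, and 1 gene of the list was higher without overlap. These 2 lower genes are 6.67% of the list, against 2.54% of all probes. Of all probes, 2.52% were higher without overlap. Over 18 genes of mTORC1 and S6 kinase signalling the median was 0.01, with 0 at that unadjusted p, between 0.34 for Ddit4, an mTORC1 inhibitor induced by stress, and -0.21 for Rps6kb2, an S6 kinase. The 77 tested mitochondrial ribosomal protein genes, which serve a separate ribosome, had a median of -0.01, with 34 higher and 43 lower, 0 called and 2 higher at that unadjusted p, from -0.50 for Mrpl41 to 0.37 for Mrpl55.

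Markers of hippocampal neurons were present, with all 6 well above background on all 8 arrays and a mean level over the list of 4.13 to 4.46 in control mice and 4.23 to 4.63 in BaP mice. One of them, the kainate receptor gene Grik4, was lower in every BaP mouse than in any control, at -0.64 (SE 0.133, adjusted p 0.368 in limma). The lists for oligodendrocytes, endothelium, microglia, astrocytes, meninges and thalamus had median differences between -0.28 and 0.06, and limma called 0 of their genes. At an unadjusted p of 0.05 stood Cldn5, of endothelial tight junctions, at -0.57 (adjusted p 0.138 in limma, no overlap), the oligodendrocyte genes Mobp at -0.29 and Cnp at 0.49, and the microglial Cx3cr1 at -0.22. These genes too were picked out after their values had been seen. Choroid plexus markers varied between mice more than any other list, from 2.49 to 4.25 in controls and from 1.93 to 5.22 in BaP mice. All 8 markers had a higher mean in BaP mice, with a median difference of 0.76 and 6 past 1.5-fold, but in limma 0 were called (lowest adjusted p 0.688) and 0 reached an unadjusted p of 0.05. BaP 1 had the lowest list mean of the 8 mice and the other three BaP mice the highest, from 4.36. Erythroid markers moved with the groups: all 5 were lower in every BaP mouse than in any control, the list mean was 4.62 to 4.84 in controls and 3.54 to 3.90 in BaP mice, and 2 of 5 passed the test. Of the mice whose labels disagree, Control 3 and Control 4 were at 4.84 and 4.80 and BaP 3 and BaP 4 at 3.78 and 3.90, on the side of their titles; no mouse was grouped from these values. The markers past the test were Hbb-bs, a beta globin, which fell by 1.90 (adjusted p 0.00234 in limma), and Alas2, the erythroid enzyme of heme synthesis, which fell by 1.05 (adjusted p 0.044). The part of any of these cell types in the ribosomal protein values was not tested.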

How the data were processed

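Muta Mouse hippocampus was profiled on 8 2-colour arrays of 1 slide (4 control, 4 BaP mice). The authors scanned them with Agilent Feature Extraction 11.0.1.1, and the deposited scanner files hold spot intensity on a linear scale with no normalization between arrays. The authors also deposited LOWESS-normalized log2 ratios, which served as an alternative. Across probes they tracked the loess ratios used here (Pearson 0.998 to 0.999), but the median difference of the genes was -0.006 with them and -0.077 with loess.

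Spot medians were background-corrected with normexp (offset 50) and loess-normalized within arrays in limma 3.58.1 (R 4.3.3); Python 3.11.15 did the rest. Control spots were dropped, outlier spots set missing and spots of a probe averaged; no spot was saturated. A probe had to be flagged well above background in the Cy5 channel of 4 or more of the 8 arrays, and was then tested with lmFit and eBayes, Benjamini-Hochberg over 32600 probes. A call needed an adjusted p of 0.05 or less and a fold change of 1.5 or more. On simulated data for this comparison, 195 of 200 changed probes were recovered among 32002, with 5 false calls. Recovery of differences as small as those of the core ribosomal protein genes was not tested. Single genes had exact two-sided permutation tests over mice, not adjusted. Of 28685 probes with a RefSeq accession, 94.9% were named through the table of GRCm38.p6, and the brightest probe stood for a gene. The number of arrays limits the precision. Median Cy5 was 108 to 174 units, background 67 to 71, and outlier spots 310 to 371 on 7 arrays and 1483 on Control 1.

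Members and lists were chosen with earlier results of these data known, as was the rule for named genes: the 5 highest and 5 lowest differences, fixed roles, paralogs with parents, the 5 highest and 5 lowest levels, and genes with an outlying mouse. Promoter words, run length and window, the classes of brightness and the loess without ribosomal protein probes were chosen after values were seen. Alternatives covered the filter, outlier and saturated spots, normalization, channel, authors' ratios, blocks, slide rows, fits, probe choice, source names and each mouse left out. Mice were labelled as separate animals. Results of 2 genes are counted but not reported by name here.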

Additional observations from a re-analysis of the deposited data

Results flagged for a closer look

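In 12 of 198 groups of 4 mice examined, 1 mouse lay far from the other three; at this criterion chance gives about 9.9. The gap to the nearest mouse, as a share of the group's range, is given for each. Among controls, Control 1 stood apart for Rplp0 (share 0.968, at -0.86 against -0.51 to -0.50), for Rps18 (0.892, at -1.24 against -1.35 to -1.34) and for Rpsa (0.850, at -0.25 against -0.48 to -0.45). Control 2 stood apart for Rpl14 (0.842, at 0.39 against 0.57 to 0.60) and Rpl21 (0.860, at -0.73 against -0.85 to -0.83). Control 3 did so for Rpl31 (0.8293, at -0.52 against -0.42 to -0.40), and Control 4 for Rpl32 (0.875, at -0.21 against -0.31 to -0.30).

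Among BaP mice, BaP 1 was low for Rps9 (0.891, at -0.71 against -0.50 to -0.48). BaP 2 was high for Rpl7a (0.879, at -0.73 against -0.94 to -0.92) and for Trp53 (0.886, at -1.21 against -1.60 to -1.55). BaP 4 was high for Rpl38 (0.846, at 0.62 against 0.44 to 0.47) and for Mrpl41 (0.912, at 0.38 against -2.05 to -1.83). For Mrpl41, 2 control mice were also high, at 0.28 and 0.03, and 2 were at -1.92 and -1.80, so the 8 mice fell into 2 levels that cut across the groups.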

How the results depend on the processing

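No ribosomal protein gene was called under any of 26 alternatives, with the lowest adjusted p of a member between 0.218 and 0.918. The count of all probes called was 5 with no filter on dim probes, 6 with Cy5 alone, 7 with a robust fit and intensity trend, and 0 with processed signals, a gene-wise F test, source names, either slide row or the 4 undisputed mice, which are the mice of row 1. Leaving out 1 mouse at a time gave 1 to 3. Members at an unadjusted p of 0.05 numbered 5 as reported, 0 with Cy5 alone and in row 1, 1 with processed signals and with source names, 2 with the authors' ratios and in row 2, 11 with median centring, 12 with the F test, 13 with the robust fit, and 3 to 8 with 1 mouse left out: 3 without BaP 3 and 8 without BaP 4. Of all probes, 8.76% reached that p as reported, 18.6% with median centring, 8.23% with the F test and 8.72% with the robust fit, and all 11 with median centring were higher, as were 18.2% of all probes. The share of all probes was 7.88% with Cy5 alone, 6.95% in row 1, 8.11% with processed signals and 4.39% with source names. It was 9.28% with the authors' ratios, 6.14% in row 2 and 7.31% with the replicate block. With 1 mouse left out it ran from 5.31% to 10.7%, with 6.01% without BaP 3 and 10.7% without BaP 4. The median difference of the genes was -0.097 to -0.051 with 1 mouse left out, against -0.077 as reported, -0.05 in row 2 and -0.10 with loess fitted without their own probes, an alternative chosen after seeing the data. It moved to -0.019 with processed signals, 0.19 with median centring (0.022 relative to all probes), 0.019 with Cy5, -0.0064 with the authors' ratios and -0.0092 with source names. Replicate numbers did not pair the mice (correlations of same-numbered deviations -0.35 to 0.03), and the replicate block gave 3 probes called, 0 members called, 5 members at an unadjusted p of 0.05 and a median of -0.077, with Rpl7l1 at -0.017. Of 47 named members, 45 had an estimate of opposite sign under at least 1 alternative, none of them past the test; the cause was not tested. With median centring, where all probes shifted by 0.167, these were Rpl11 0.15, Rpl14 0.14, Rpl21 0.25, Rpl22 0.099, Rpl22l1 0.19, Rpl23 0.17, Rpl26 0.11, Rpl27 0.17, Rpl31 0.061, Rpl32 0.15, Rpl36a 0.074, Rpl36al 0.11, Rpl37a 0.017, Rpl38 0.16, Rpl39 0.10, Rpl5 0.24, Rpl7 0.24, Rpl9 0.030, Rplp0 0.18, Rps16 0.17, Rps19 0.20, Rps23 0.17, Rps23rg1 0.12, Rps24 0.19, Rps26 0.035, Rps27 0.19, Rps27a 0.16, Rps28 0.15, Rps29 0.17, Rps4l 0.073, Rps6 0.24, Rps9 0.17 and Rpsa 0.23. Relative to that shift, 16 of the named members had an opposite sign. Opposite signs with source names were Rpl10 -0.12, Rpl10l -0.76, Rpl14 0.0061, Rpl23a -0.028, Rpl32 0.014, Rpl32l -0.062, Rpl36a 0.050, Rpl36al 0.11, Rpl39 0.029, Rpl5 0.0044, Rpl9 0.034, Rplp0 0.11, Rplp1 -0.067, Rplp2 -0.054, Rps18 -0.020, Rps19 0.13, Rps23rg1 0.0066, Rps24 0.0035, Rps26 0.035, Rps27 0.035, Rps28 0.067, Rps29 0.020, Rps4l 0.38 and Rps4x -0.036. Cy5 alone gave Rpl11 0.028, Rpl21 0.043, Rpl23 0.026, Rpl27 5.8e-05, Rpl32l -0.070, Rpl36al 0.030, Rpl7 0.072, Rplp0 0.053, Rps16 0.022, Rps23 0.028, Rps23rg1 0.028, Rps29 0.030, Rps6 0.079 and Rps9 0.068. The authors' ratios gave Rpl21 0.030, Rpl39l -0.019, Rpl7 0.051, Rpl7l1 -0.18, Rplp0 0.014, Rps16 0.010, Rps24 0.0087, Rps27 0.0044, Rps29 0.0011, Rps6 0.063, Rps9 0.0014 and Rpsa 0.057. Slide row 1 gave Rpl10 -0.11, Rpl10l -0.060, Rplp0 0.038, Rplp1 -0.066, Rplp2 -0.039, Rps18 -0.011, Rps19 0.061 and Rps4l 0.27, and row 2 gave Rpl21 0.033, Rpl23 0.018, Rpl3 -0.065, Rpl39l -0.098, Rpl7 0.099, Rpl7a -0.022, Rpl7l1 -0.11, Rps6 0.14, Rps9 0.032 and Rpsa 0.025. The mean over probes gave Rpl10 -0.070, Rpl7 0.049, Rpl7a -0.057, Rps18 -0.013 and Rps6 0.042, loess without the genes' own probes Rpl10 -0.021, Rpl3 -0.016, Rplp1 -0.028, Rplp2 -0.015 and Rps18 -0.015, and processed signals Rpl7 0.041, Rps4l 0.076, Rps6 0.052 and Rpsa 0.019. Rpl7l1 was at -0.19 with outlier spots kept and -0.0068 with slide row as a block. With 1 mouse left out, estimates that crossed 0 ranged as follows: Rpl3 -0.037 to 0.053, Rpl7 -0.043 to 0.027, Rps6 -0.065 to 0.019, Rpsa -0.061 to 0.017, Rpl21 -0.071 to 0.019, Rplp2 -0.025 to 0.059, Rps18 -0.016 to 0.037, Rpl39l -0.016 to 0.27, Rpl7l1 -0.031 to 0.070, Rplp1 -0.028 to 0.044, Rpl10 -0.041 to 0.060, Rpl5 -0.071 to 0.0086, Rps19 -0.14 to 0.0039, Rps4l -0.33 to 0.068, Rpl7a -0.020 to 0.062 and Rplp0 -0.16 to 0.0070. Setting saturated spots missing changed no value. Signal over background limits Rpl10l, Rpl39l and Rpl3l, and 4 mice a group limit the smallest exact permutation p to 0.029.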
